A study of Homo sapiens with 8 samples.

Results

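The 41 genes described here belong to glucose uptake, glycolysis, the fate of pyruvate and the transcriptional response to low oxygen. They form a fixed list of glycolytic enzymes and targets of the hypoxia-inducible factors (HIF), matched by Ensembl identifier to symbols of GENCODE release 44 on GRCh38. All 41 were found among the 60624 genes of the count files, all 41 are protein-coding, and all 41 passed the filter on low counts as part of the 18661 genes tested. RNA was sequenced from A549, an established human lung adenocarcinoma line, in 8 libraries: 2 technical replicates each of untreated cells, cells treated with indisulam, cells treated with SPHINX31 and cells treated with both (the combination). Indisulam is a molecular glue that brings the splicing factor RBM39 to a ubiquitin ligase, and SPHINX31 inhibits SRPK1, a kinase of splicing factors. The methods text gives 0.5 µM indisulam, 5 µM SPHINX31 and 24 h, while the deposited treatment note gives 2 µM indisulam and 18 h for all libraries, so dose and time are uncertain. The paper's figure legend for A549 repeats the values of its methods, and 2 µM and 18 h are those it states for a pancreatic cancer line. All groups are this 1 cell line, grown in RPMI medium with fetal bovine serum, and the labels distinguish them only by the compounds added. The paper states that its reagents were dissolved in DMSO, and whether untreated cells received this solvent is not stated. With technical replicates, differences between compounds and between cultures cannot be told apart. The experiment addressed whether errors in splicing account for the joint effect of the compounds, which counts per gene do not measure.

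Glycolysis splits glucose into pyruvate through a chain of cytosolic enzymes, most of which exist as several isoenzymes encoded by different genes. Cells without enough oxygen, and many tumor cells with it, reduce pyruvate to lactate and export it. The same genes answer to oxygen: prolyl hydroxylases of the EGLN family mark the HIF alpha subunits (HIF1A and EPAS1) for recognition by VHL and destruction, and when oxygen falls the subunits persist, pair with ARNT and raise glucose transporters, glycolytic enzymes and many other targets. HIF alpha subunits are controlled largely at the protein level, which counts of mRNA do not measure.

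Levels are given as CPM, read counts per 1e6 counts of library size after TMM scaling. The libraries held 51727369 to 63186989 counts on genes. Because the replicates are technical, p-values measure the spread between libraries made from these cells and not between independent treatments, and in bulk RNA fewer cells of a kind and less RNA per cell cannot be told apart. No library was a copy of its replicate, with a chi-square per degree of freedom of 6.59 to 10.7. All 7 markers of A549 and epithelial cells were expressed, with a summed level of 13750 to 16770 CPM, highest in the untreated libraries (both at 16770) and lowest in the combination (13750 and 13760). The markers did not move together. From untreated cells to the combination, mean levels of KRT19 (70.5 to 87.1 CPM) and EPCAM (27.5 to 32.3) rose. The others fell, AKR1B10 by the most CPM (6904 to 4878). The part of these differences in the results was not tested. The summed level of 9 markers of blood, endothelial, fibroblast and liver cells was 12.8 to 16.5 CPM. Of these 9, 4 passed the filter, and 1, the T cell marker CD3E, was at 0 in all libraries. CDKN2A, which is deleted in A549, was not at 0 and had 2.65 to 3.64 CPM.

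The untreated libraries differed from each other in a way that touched these genes. Untreated replicate 1 was above replicate 2 in 36 of 41 members (87.8%, median log2 ratio 0.15), against 49.3% of all tested genes. The number was 12 with indisulam, 28 with SPHINX31 and 30 with the combination. The 4 widest gaps were those of NDRG1, which stood at 139.8 and 90.5 CPM in the untreated replicates, ALDOC at 9.90 and 6.32, ANGPTL4 at 11.6 and 6.36, and CA9 at 1.25 and 0.604.

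**Figure D1:**
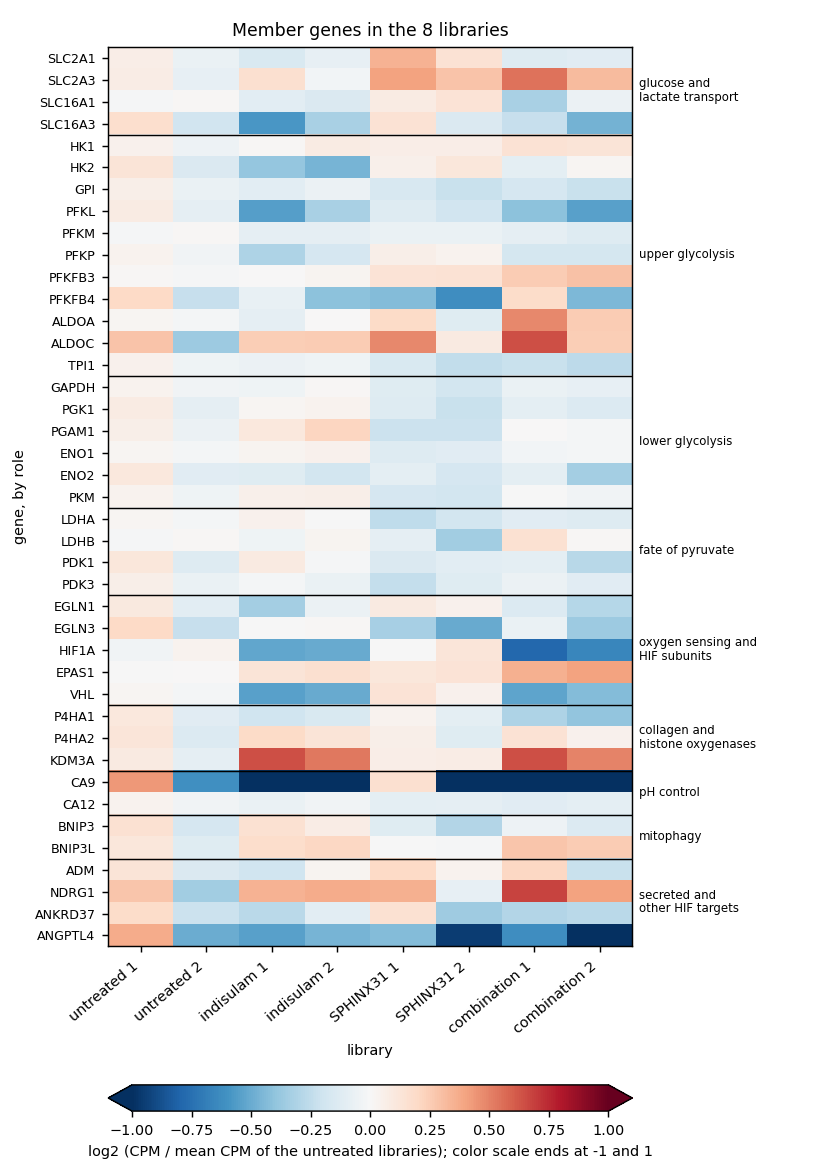
Heat map of the 41 member genes (rows, grouped by role) in the 8 libraries (columns), as log2 of CPM over the mean CPM of the untreated libraries, with the color scale ending at -1 and 1. In the first column 36 of 41 genes lie above the second, HIF1A, VHL and PFKL are blue and KDM3A is red in all 4 libraries with indisulam.

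Counts of 3 members are uncertain. On GENCODE models, ALDOA, LDHB and EGLN1 share 42.8%, 33.4% and 55.8% of their exon bases with another protein-coding gene on the same strand, and reads that fall on 2 genes were recorded as ambiguous and not counted. ALDOA, in most tissues an abundant enzyme, had 1253 to 1959 counts per library, while 227182 to 267468 reads per library were ambiguous on chromosome 16. In all, 17 members, ALDOA among them, overlap a gene on the opposite strand in part, and the strand setting of the counting is not given in the sources used here. The overlap reached 35.7% of the exon bases of CA9 (with ARHGEF39) and 40.3% of those of ANKRD37 (with UFSP2). Pseudogenes named after 18 of the members took at most 0.584% as many counts as the member itself.

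Most members share a sequence feature, but as the list names HIF targets, letters that HIF binds are not independent of it. The core of the HIF binding site was searched as the letters ACGTG and GCGTG on both strands, in RefSeq promoter windows on GRCh38.p14 that run from 250 bases before to 50 bases after a gene start. ACGTG also lies inside the E-box CACGTG, and GCGTG is also the core of the site of the aryl hydrocarbon receptor. CACGT and CACGC are the same letters read on the other strand. At least 1 match was present in the windows of 33 of 36 members with an entry (91.7%), against 52.4% of all genes, and among members with 1 window in 21 of 24 (87.5%), against 47.3% of such genes. BNIP3L, NDRG1, SLC16A1, SLC2A3 and VHL had no entry. Counted by window, the share was 68.8% of 64 member windows and 48.4% of 35116 windows. The genes compared were all genes with an entry, not matched to the members for expression or base composition. A match is a description of letters and not a bound site. By direction of change, matches were in 66.7% of the 15 windows of members higher with the combination and in 71.4% of the 21 windows of members lower with it. These are not shares of genes. A gene with several starts enters with each window, and most windows of HK1, a higher member, held no match. BNIP3L, NDRG1 and SLC2A3, also higher, do not enter. The 250 bases before the start are shown for the HIF alpha subunit that fell with indisulam (HIF1A, chr14:61695263-61695512), for the hexokinase that fell with it (HK2, chr2:74833877-74834126) and for the carbonic anhydrase with the largest fall in the combination (CA9, chr9:35673678-35673927), all on the plus strand, 5′ to 3′, with the matched letters in capitals. HK2 held 3 matches, the nearest 48 bases before its start, HIF1A 1 match at 204 bases and CA9 1 match at 18 bases. HIF1A and HK2 each have another window that overlaps the annotated gene and is not shown. It held 0 matches before the start for HIF1A and 6 for HK2.
HIF1A: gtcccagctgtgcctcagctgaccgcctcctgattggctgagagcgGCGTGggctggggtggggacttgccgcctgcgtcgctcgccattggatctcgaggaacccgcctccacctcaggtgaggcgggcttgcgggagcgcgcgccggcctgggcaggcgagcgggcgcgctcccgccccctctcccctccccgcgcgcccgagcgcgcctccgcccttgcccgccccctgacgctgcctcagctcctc
HK2: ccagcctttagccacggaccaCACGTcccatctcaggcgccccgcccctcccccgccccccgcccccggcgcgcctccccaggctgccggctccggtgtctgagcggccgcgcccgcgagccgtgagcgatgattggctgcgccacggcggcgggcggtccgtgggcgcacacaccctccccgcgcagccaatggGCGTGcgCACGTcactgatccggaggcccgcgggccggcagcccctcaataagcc
CA9: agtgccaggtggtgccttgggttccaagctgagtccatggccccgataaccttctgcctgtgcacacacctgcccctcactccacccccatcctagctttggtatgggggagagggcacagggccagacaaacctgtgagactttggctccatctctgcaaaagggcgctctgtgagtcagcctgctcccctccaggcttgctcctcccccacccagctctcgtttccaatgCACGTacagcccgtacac

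With indisulam, 4 members were higher and 6 lower than in untreated cells (adjusted p under 0.05 over all tested genes by the Benjamini-Hochberg method, from the quasi-likelihood test of edgeR). These 10 are 24.4% of the members, against 43.7% of all genes called, and the median absolute log2 fold change was 0.13 for the members and 0.26 for all genes. With SPHINX31, 2 members were higher and 5 lower, 17.1% against 8.61% of all genes, with medians of 0.13 and 0.14. With the combination, 8 were higher and 13 lower, 51.2% against 50% of all genes, with medians of 0.20 and 0.30. With SPHINX31 the counts hung on single libraries: without untreated replicate 1, 0 members and 482 genes were called, and without SPHINX31 replicate 2, 1 member higher, 1 lower and 1532 genes. By direction, the background was 20.1% higher and 23.5% lower with indisulam, 4.94% and 3.67% with SPHINX31, and 23.8% and 26.3% with the combination. All 3 comparisons share the untreated libraries. The plot of fold changes gives every member in the 3 comparisons.

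**Figure D2:**
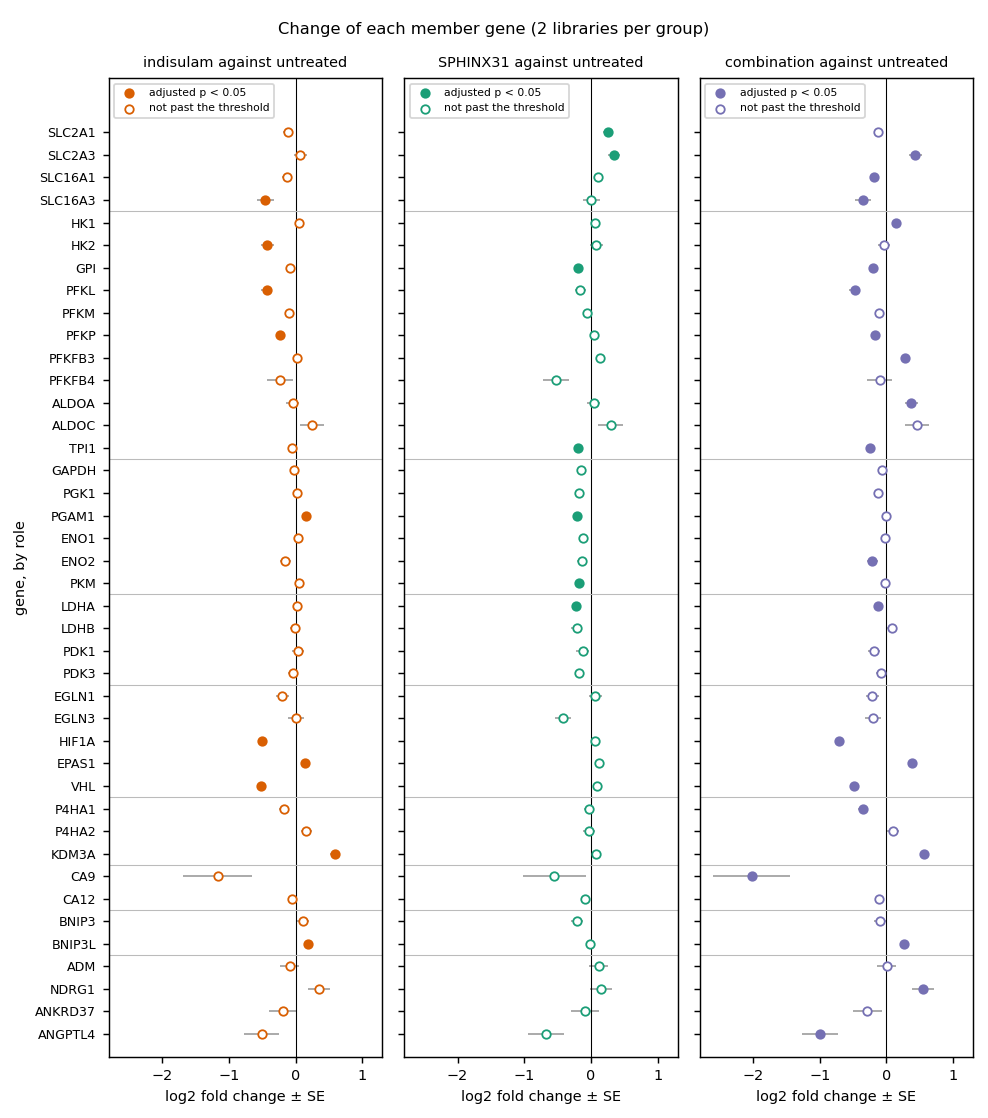
Log2 fold change (points) ± SE of each member against untreated cells with indisulam, SPHINX31 and the combination, with 2 libraries per group, filled where the adjusted p was under 0.05. Most members lie within 0.5 of 0, and CA9 in the combination lies farthest out at -2.02.

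With indisulam and with the combination, the lowest adjusted p-values of any member fell among the sensors of oxygen and the HIF subunits (edgeR). Of these 5 genes, 3 were called in each comparison (60%, against 43.7% and 50% of all genes). With SPHINX31 it was 0 of 5, against 8.61% of all genes. HIF1A (ENSG00000100644, chromosome 14, 61695513 to 61748259, plus strand), the alpha subunit of HIF-1, was at 654 and 690.0 CPM in the untreated libraries, 469.6 and 475 with indisulam, 671 and 732 with SPHINX31 and 389 and 428 with the combination. The libraries with indisulam, alone or combined, all lay below the other 4, and those of SPHINX31 overlapped the untreated ones. The log2 fold change of HIF1A was -0.51 (adjusted p = 1.2e-05, SE 0.0579) with indisulam, 0.702 times the untreated level, and -0.72 (adjusted p = 3.84e-07, SE 0.0581) with the combination, 0.608 times that level (edgeR). With SPHINX31 it was 0.06 (adjusted p = 0.557, SE 0.0577).

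EPAS1 (ENSG00000116016, chromosome 2, 46293667 to 46386697, plus strand), the alpha subunit of HIF-2, went the other way. Its level was 273 and 275 CPM in the untreated libraries, 299 and 306 with indisulam, 296 and 301 with SPHINX31 and 349 and 361 with the combination, so that the untreated libraries were lowest, the combination highest, and the single treatments lay between them and overlapped. The log2 fold change was 0.14 (adjusted p = 0.0211, SE 0.0454) with indisulam, 0.12 (adjusted p = 0.112, SE 0.0453) with SPHINX31 and 0.38 (adjusted p = 1.42e-05, SE 0.0453) with the combination (edgeR). The call with indisulam was lost without untreated replicate 1 or 2 or indisulam replicate 1 or 2 (0.14 to 0.16, adjusted p from 0.0623 to 0.122), while that with the combination held in every alternative. Per kilobase of exon, HIF1A stood above EPAS1 by a ratio of 3.48 in untreated cells, 2.21 with indisulam, 3.33 with SPHINX31 and 1.63 with the combination.

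VHL (ENSG00000134086, chromosome 3, 10141778 to 10153667, plus strand), the adaptor that brings hydroxylated HIF alpha to a ubiquitin ligase, was at 90.8 and 88.5 CPM in the untreated libraries, 61.5 and 63.3 with indisulam, 98.4 and 92.3 with SPHINX31 and 62.3 and 66.3 with the combination. The 4 libraries with indisulam did not overlap the other 4. The log2 fold change was -0.52 (adjusted p = 6.33e-06, SE 0.0553) with indisulam, 0.09 (adjusted p = 0.348, SE 0.0545) with SPHINX31 and -0.48 (adjusted p = 9.37e-06, SE 0.0551) with the combination (edgeR). Among the prolyl hydroxylases that mark HIF alpha, EGLN3, itself a HIF target, had 29.1 ± 6.09 CPM in untreated cells and 21.8 ± 1.87 with SPHINX31 (SD, n = 2 per group), on the log2 scale -0.42 with an adjusted p of 0.052 (edgeR). EGLN1, with its uncertain counts of 632 to 910 per library, did not pass against untreated cells either, with values of -0.20, 0.07 and -0.21 in the same order of treatments as above.

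**Figure D3:**
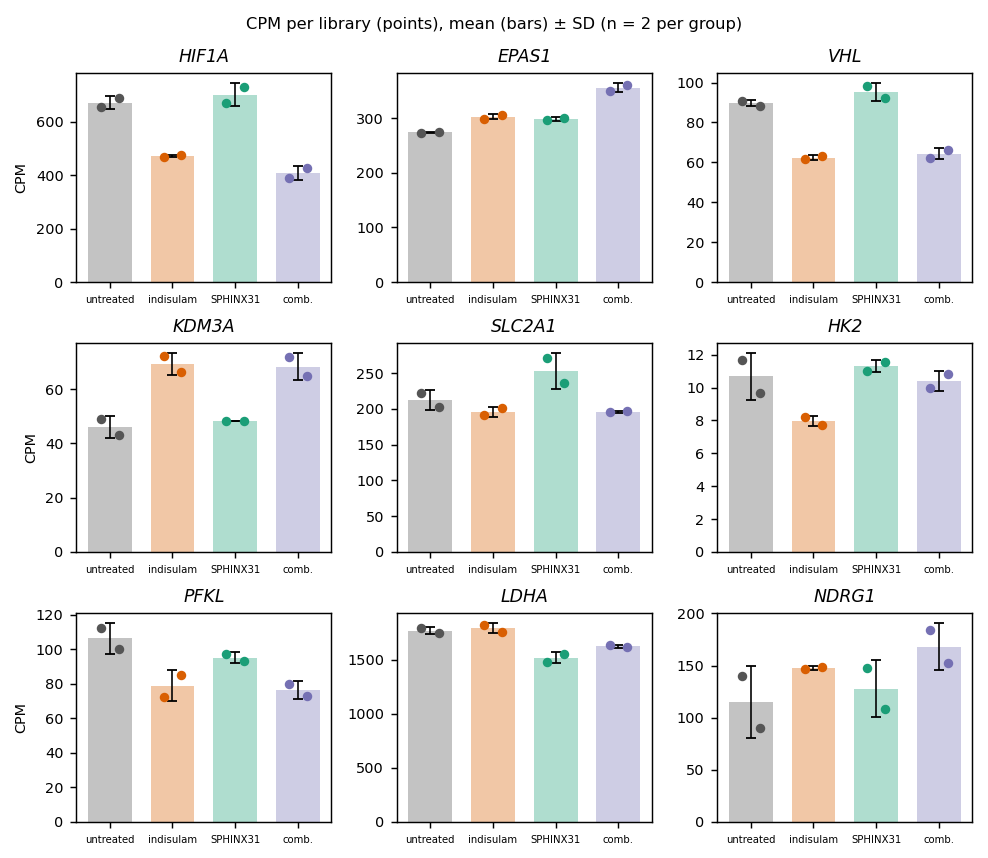
CPM of 9 members in each library (points), with the mean (bars, starting at 0) ± SD of the 2 libraries of each group; comb. stands for the combination. HIF1A, VHL and PFKL are lower and KDM3A is higher in both groups with indisulam, SLC2A1 is highest with SPHINX31, and NDRG1 shows the spread between its untreated libraries (139.8 and 90.5 CPM).

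Other oxygenases that need oxygen and 2-oxoglutarate were split. KDM3A (ENSG00000115548, chromosome 2, 86440647 to 86492716, plus strand), a histone H3 lysine demethylase and HIF target, was at 48.8 and 43.2 CPM in the untreated libraries, 72.0 and 66.2 with indisulam, 48.2 and 48.3 with SPHINX31 and 71.8 and 64.7 with the combination. Both groups with indisulam lay above all other libraries. Against untreated cells the log2 fold change was 0.59 (adjusted p = 2.14e-05, SE 0.0713) with indisulam and 0.57 (adjusted p = 2.05e-05, SE 0.0713) with the combination, and 0.07 (adjusted p = 0.609, SE 0.0719) with SPHINX31 (edgeR), which made it the largest rise among the members in both comparisons with indisulam. P4HA1 and P4HA2 encode alternative catalytic subunits of collagen prolyl 4-hydroxylase. P4HA1 fell with the combination, from 66.2 ± 6.87 to 51.9 ± 2.201 CPM (SD, n = 2 per group), on the log2 scale -0.35 (adjusted p = 0.00118, SE 0.0723) by edgeR. P4HA2 had values of 0.16, -0.03 and 0.10 with indisulam, SPHINX31 and the combination and passed in none.

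Among the transporters, both glucose importers rose with SPHINX31. SLC2A1 (ENSG00000117394, chromosome 1, 42925353 to 42958893, minus strand), the ubiquitous glucose transporter GLUT1, was at 222 and 203 CPM in the untreated libraries, 191 and 201 with indisulam, 271 and 235 with SPHINX31 and 195 and 197 with the combination. The SPHINX31 libraries were highest, and the untreated ones came next, above all libraries with indisulam. The difference on the log2 scale was 0.25 (adjusted p = 0.032, SE 0.0658) with SPHINX31, -0.12 with indisulam and -0.12 with the combination (edgeR). SLC2A3, the high-affinity transporter GLUT3, was at 15.3 and 13.8 CPM in the untreated libraries, 16.2 and 14.3 with indisulam, 19.2 and 17.7 with SPHINX31 and 21.2 and 18.1 with the combination. It was higher with SPHINX31 (0.34, adjusted p = 0.04, SE 0.0944) and with the combination (0.43, adjusted p = 0.00172, SE 0.0939), in libraries that did not overlap the untreated ones, and had 0.07 with indisulam (edgeR). With SPHINX31 the call of SLC2A1 was lost without untreated replicate 1 or 2, SPHINX31 replicate 1 or combination replicate 1 or 2 (0.14 to 0.32, adjusted p from 0.0548 to 0.27), and that of SLC2A3 without untreated replicate 1 or 2 or SPHINX31 replicate 1 or 2 (0.27 to 0.42, adjusted p from 0.0538 to 0.269) (edgeR). The call of SLC2A3 with the combination held in every alternative.

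Neither lactate carrier was called higher in any comparison with untreated cells. SLC16A3 (ENSG00000141526, chromosome 17, 82217934 to 82261129, plus strand), the HIF-responsive lactate exporter MCT4, was at 49.4 and 38.4 CPM in the untreated libraries, 29.3 and 35.05 with indisulam, 48.6 and 39.6 with SPHINX31 and 37.3 and 31.6 with the combination. Both indisulam libraries lay below both untreated libraries, and so did the combination libraries, but the untreated replicates themselves were 1.29 times apart. Its log2 fold change was -0.45 (adjusted p = 0.0108, SE 0.126) with indisulam, 0.01 with SPHINX31 and -0.35 (adjusted p = 0.0328, SE 0.125) with the combination (edgeR). The call with indisulam was lost without untreated replicate 1 or indisulam replicate 1 (-0.32 to -0.26, adjusted p from 0.0664 to 0.152), and that with the combination without untreated replicate 1 or combination replicate 2 (-0.23 to -0.16, adjusted p from 0.264 to 0.368), by edgeR. DESeq2 called neither (adjusted p = 0.0786 and 0.167). SLC16A1, the broadly expressed carrier MCT1, passed only with the combination (-0.18, adjusted p = 0.0431, SE 0.0700) and had -0.13 with indisulam and 0.11 with SPHINX31. Its call was lost without untreated replicate 1 or 2, SPHINX31 replicate 1 or 2 or combination replicate 1 (-0.19 to -0.05, adjusted p from 0.0566 to 0.539) in edgeR.

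The 11 genes of upper glycolysis, from hexokinase to triose phosphate isomerase, held 3 lower and 0 higher with indisulam, 2 lower and 0 higher with SPHINX31, and 4 lower and 3 higher with the combination. The calls were 27.3%, 18.2% and 63.6% of the 11, against 43.7%, 8.61% and 50% of all genes. The median log2 fold changes of the 11 were -0.08, 0.04 and -0.10. HK2 (ENSG00000159399, chromosome 2, 74834127 to 74893359, plus strand), the inducible hexokinase, was at 11.7 and 9.68 CPM in the untreated libraries, 8.18 and 7.75 with indisulam, 11.04 and 11.6 with SPHINX31 and 9.97 and 10.8 with the combination. The indisulam libraries were the lowest and did not overlap any other group. Against untreated cells the log2 fold change was -0.42 (adjusted p = 0.00379, SE 0.0992) with indisulam, 0.08 with SPHINX31 and -0.04 with the combination (edgeR). The call was lost without untreated replicate 1 (-0.28, adjusted p = 0.0735). HK1, the housekeeping hexokinase, rose with the combination from 68.9 ± 3.16 to 75.8 ± 0.543 CPM (SD, n = 2 per group), on the log2 scale 0.14 (adjusted p = 0.0428, SE 0.0529) by edgeR that lost its call without untreated replicate 1 or 2 or combination replicate 1 or 2 (0.09 to 0.19, adjusted p from 0.0507 to 0.319).

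Phosphofructokinase commits sugar to glycolysis, and its 3 subunit genes did not move alike. PFKL (ENSG00000141959, chromosome 21, 44300051 to 44327376, plus strand), the liver-type subunit, was at 113 and 100.1 CPM in the untreated libraries, 72.5 and 85.1 with indisulam, 97.4 and 93.04 with SPHINX31 and 80.0 and 72.9 with the combination. Both groups with indisulam lay below the other libraries. The difference on the log2 scale was -0.43 (adjusted p = 0.000598, SE 0.0783) with indisulam, -0.16 (adjusted p = 0.233, SE 0.0778) with SPHINX31 and -0.48 (adjusted p = 0.000212, SE 0.0783) with the combination (edgeR). PFKP, the platelet-type subunit, went from 423 ± 13.8 CPM to 358 ± 25.02 with indisulam and 374 ± 0.751 with the combination (SD, n = 2 per group), on the log2 scale -0.24 and -0.18 with adjusted p-values of 0.00266 and 0.0143 (edgeR). These calls were lost without indisulam replicate 1 (-0.17, adjusted p = 0.0536) for indisulam and without untreated replicate 1 or combination replicate 1 or 2 (-0.18 to -0.14, adjusted p from 0.0582 to 0.13) for the combination. PFKM, the muscle-type subunit, had -0.09, -0.06 and -0.11 with indisulam, SPHINX31 and the combination and passed in none.

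PFKFB3 (ENSG00000170525, chromosome 10, 6144934 to 6254644, plus strand) makes fructose 2,6-bisphosphate, the activator of phosphofructokinase. It was at 102 and 99.99 CPM in the untreated libraries, 101 and 103 with indisulam, 111 and 112 with SPHINX31 and 121 and 124 with the combination. The groups stood in steps, with the combination highest, then SPHINX31, and the untreated and indisulam libraries overlapping below. The log2 fold change was 0.02 with indisulam, 0.14 (adjusted p = 0.0825, SE 0.0473) with SPHINX31 and 0.27 (adjusted p = 0.000302, SE 0.0472) with the combination (edgeR). PFKFB4, another enzyme of this kind, had 216 to 402 counts per library and log2 fold changes of -0.23, -0.53 and -0.10, none past the threshold.

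GPI and TPI1 interconvert phosphorylated sugars in upper glycolysis, and both were lower with SPHINX31 and with the combination. GPI was at 1046 and 959 CPM in the untreated libraries, 929.7 and 965 with indisulam, 899 and 859.5 with SPHINX31 and 890.4 and 859.5 with the combination. The SPHINX31 and combination libraries all lay below the untreated ones. TPI1 was at 1580.4 and 1494 CPM in the untreated libraries, 1475 and 1494 with indisulam, 1382 and 1299 with SPHINX31 and 1314 and 1281 with the combination. Again both of these groups lay below the untreated libraries, while the indisulam libraries overlapped them. The log2 fold changes were -0.19 (adjusted p = 0.0398, SE 0.0523) and -0.20 (adjusted p = 0.00668, SE 0.0523) for GPI and -0.20 (adjusted p = 0.0226, SE 0.0485) and -0.24 (adjusted p = 0.000931, SE 0.0486) for TPI1, with SPHINX31 and the combination in that order (edgeR). With SPHINX31 the calls were lost without untreated replicate 1 or 2, SPHINX31 replicate 1 or 2 or combination replicate 1 or 2 (-0.25 to -0.13, adjusted p from 0.0526 to 0.359) for GPI and without untreated replicate 1 or 2 or SPHINX31 replicate 2 (-0.24 to -0.16, adjusted p from 0.0649 to 0.24) for TPI1. With the combination the call of GPI was lost without untreated replicate 1 or combination replicate 2 (-0.17 to -0.13, adjusted p from 0.0577 to 0.121), and that of TPI1 held in every alternative. Of the aldolases, which cleave fructose 1,6-bisphosphate, ALDOA was higher with the combination (0.37, adjusted p = 0.00587, SE 0.0970) on its uncertain counts, a call lost without combination replicate 1 (0.26, adjusted p = 0.0844), and ALDOC had 0.45 (adjusted p = 0.0509, SE 0.181) there (edgeR).

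The 6 genes of lower glycolysis, from GAPDH to pyruvate kinase, differed little. None had an absolute log2 fold change of 0.5 or more in any comparison. With SPHINX31 all 6 had a negative value, from -0.21 to -0.12 (median -0.16), and 2 of them, PGAM1 and PKM, passed. That is 33.3% of the 6, against 8.61% of all genes called. With indisulam the median was 0.03 and with the combination -0.05. GAPDH (ENSG00000111640, chromosome 12, 6534512 to 6538374, plus strand), the dehydrogenase often used as a loading reference, was at 9626 and 9148 CPM in the untreated libraries, 9111 and 9453 with indisulam, 8643 and 8252 with SPHINX31 and 8988 and 8880.3 with the combination. The SPHINX31 libraries were lowest, the combination libraries came next, and the untreated and indisulam libraries overlapped above them. Its log2 fold change was -0.02 (adjusted p = 0.799, SE 0.0459), -0.15 (adjusted p = 0.0575, SE 0.0459) and -0.07 (adjusted p = 0.215, SE 0.0459) with indisulam, SPHINX31 and the combination (edgeR).

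PKM (ENSG00000067225, chromosome 15, 72199029 to 72231819, minus strand), the pyruvate kinase of most tissues and tumors, was at 5861 and 5553 CPM in the untreated libraries, 5906 and 5935 with indisulam, 5089 and 5012 with SPHINX31 and 5684 and 5566 with the combination. The SPHINX31 libraries lay below all others. Against untreated cells the log2 fold change was 0.05 with indisulam, -0.18 (adjusted p = 0.0244, SE 0.0440) with SPHINX31 and -0.02 with the combination (edgeR). The counts do not resolve its M1 and M2 exons. PGAM1, the phosphoglycerate mutase, was at 249.7 and 229.7 CPM in the untreated libraries, 258 and 277 with indisulam, 207 and 207 with SPHINX31 and 241 and 236 with the combination. It was highest with indisulam and lowest with SPHINX31, and neither group overlapped another. In the comparisons with untreated cells, PGAM1 was the only enzyme of the list called in opposite directions. It had 0.16 (adjusted p = 0.0298, SE 0.0541) with indisulam and -0.21 (adjusted p = 0.0266, SE 0.0543) with SPHINX31 (edgeR). The call of PGAM1 with indisulam was lost without untreated replicate 2 or indisulam replicate 2 (0.10 to 0.11, adjusted p from 0.204 to 0.287) and that with SPHINX31 without untreated replicate 1 or SPHINX31 replicate 1 or 2 (-0.22 to -0.15, adjusted p from 0.0691 to 0.283). The call of PKM with SPHINX31 was lost without untreated replicate 1 or 2 or SPHINX31 replicate 1 or 2 (-0.21 to -0.14, adjusted p from 0.0635 to 0.267). PGK1, ENO1 and ENO2, which encode phosphoglycerate kinase and 2 enolases, gave 1 call in these comparisons, ENO2 with the combination (-0.21, adjusted p = 0.0425, SE 0.0814, edgeR), lost without untreated replicate 1, SPHINX31 replicate 1 or 2 or combination replicate 2 (-0.20 to -0.10, adjusted p from 0.0578 to 0.419).

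At the fate of pyruvate, LDHA (ENSG00000134333, chromosome 11, 18394560 to 18408425, plus strand), the lactate dehydrogenase subunit that HIF raises, was at 1787 and 1742 CPM in the untreated libraries, 1823 and 1759 with indisulam, 1479 and 1552 with SPHINX31 and 1631 and 1612 with the combination. The SPHINX31 libraries were lowest, the combination libraries lay between them and the rest, and the untreated and indisulam libraries overlapped. The difference on the log2 scale was 0.02 with indisulam, -0.22 (adjusted p = 0.00969, SE 0.0456) with SPHINX31 and -0.12 (adjusted p = 0.0394, SE 0.0456) with the combination (edgeR). The call with SPHINX31 was lost without untreated replicate 1 or 2 or SPHINX31 replicate 1 (-0.24 to -0.19, adjusted p from 0.0604 to 0.122) and that with the combination without untreated replicate 1 or 2, indisulam replicate 1 or 2 or combination replicate 1 or 2 (-0.14 to -0.10, adjusted p from 0.0658 to 0.215). With libraries scaled by their total counts alone the value with the combination was -0.07 (adjusted p = 0.201). LDHB, on its uncertain counts of 1545 to 2140 per library, had -0.01, -0.21 and 0.08 and did not pass. PDK1, a HIF-responsive kinase that shuts pyruvate dehydrogenase, was at 18.3 and 15.4 CPM in the untreated libraries, 18.0 and 16.7 with indisulam, 15.2 and 15.6 with SPHINX31 and 15.8 and 13.9 with the combination. The untreated replicates enclosed both indisulam values and 1 value of each other group, and the gene passed in no comparison (0.04, -0.13 and -0.18). PDK3, another kinase of this kind, had -0.04, -0.18 and -0.09.

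The 2 carbonic anhydrases, which act at the cell surface and help to control pH, stood near opposite ends of the range of levels. CA9 (ENSG00000107159, chromosome 9, 35673928 to 35681159, plus strand), a classical HIF-1 target, was near the lower limit of these data at 1.25 and 0.604 CPM in the untreated libraries, 0.447 and 0.373 with indisulam, 1.03 and 0.256 with SPHINX31 and 0.332 and 0.122 with the combination, from 7 to 77 counts per library. The SPHINX31 libraries were themselves 4.03 times apart, and the combination libraries lay below both untreated ones. Its log2 fold change was -2.02 (adjusted p = 0.0103, SE 0.577) with the combination, the largest of any member, -1.17 (adjusted p = 0.083, SE 0.516) with indisulam and -0.55 (adjusted p = 0.521, SE 0.471) with SPHINX31 (edgeR). The call in the combination was lost without untreated replicate 1 (-1.40, adjusted p = 0.114) and without combination replicate 2 (-1.48, adjusted p = 0.118). CA12, the other membrane-bound enzyme, had 2868 ± 103 CPM in untreated cells (SD, n = 2) and log2 fold changes of -0.05, -0.09 and -0.11, none past the threshold.

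BNIP3 and BNIP3L are HIF targets on the outer mitochondrial membrane that direct mitochondria to autophagy. BNIP3L was at 102 and 86.2 CPM in the untreated libraries, 106 and 108 with indisulam, 93.6 and 93.4 with SPHINX31 and 114 and 112 with the combination. Both groups with indisulam lay above the untreated libraries and the SPHINX31 libraries lay between the untreated replicates. Against untreated cells the log2 fold change was 0.19 (adjusted p = 0.0328, SE 0.0662) with indisulam and 0.27 (adjusted p = 0.0043, SE 0.0661) with the combination (edgeR). The former call was lost without untreated replicate 2 or indisulam replicate 1 or 2 (0.08 to 0.21, adjusted p from 0.0579 to 0.417) and the latter without untreated replicate 2 (0.15, adjusted p = 0.0864). BNIP3 passed in no comparison, with 0.11, -0.21 and -0.10.

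Of the remaining HIF targets, NDRG1 (ENSG00000104419, chromosome 8, 133237175 to 133302022, minus strand), a stress-induced cytosolic protein, was at 139.8 and 90.5 CPM in the untreated libraries, 146 and 149 with indisulam, 147 and 109 with SPHINX31 and 184 and 152 with the combination. The combination libraries lay above both untreated libraries, but the untreated replicates were 1.55 times apart. Its log2 fold change with the combination was 0.55 (adjusted p = 0.0134, SE 0.164) by edgeR, 0.27 (adjusted p = 0.147) without untreated replicate 2 and 0.41 (adjusted p = 0.141) without combination replicate 1, and DESeq2 did not call it (adjusted p = 0.108). ANGPTL4, a secreted inhibitor of lipoprotein lipase, was at 11.6 and 6.36 CPM in the untreated libraries, 6.17 and 6.52 with indisulam, 6.64 and 4.67 with SPHINX31 and 5.84 and 3.20 with the combination. Here untreated replicate 1 stood above all other libraries, while untreated replicate 2 lay among those of the treatments. The value with the combination was -0.99 (adjusted p = 0.00769, SE 0.270) by edgeR, -0.49 (adjusted p = 0.147) without untreated replicate 1 and -0.62 (adjusted p = 0.12) without combination replicate 2, and by DESeq2 it was again not called (adjusted p = 0.0653). ADM, which encodes the vasodilator peptide adrenomedullin, and ANKRD37, an ankyrin repeat gene, were low, with 309 to 426 and 58 to 89 counts per library. Neither passed against untreated cells, with log2 fold changes from -0.09 to 0.12 for ADM and from -0.28 to -0.09 for ANKRD37.

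Levels between genes were compared per kilobase of exon. In untreated cells GAPDH was highest at 3918 ± 141 CPM per kb (SD, n = 2), followed by PKM at 666 ± 25.5, ENO1 at 582 ± 9.85, TPI1 at 569 ± 22.6, CA12 at 409.8 ± 14.8 and LDHA at 293 ± 5.22. ENO1 and TPI1 did not differ beyond their spread. At the other end stood PFKFB4 at 0.928 ± 0.194, CA9 at 0.579 ± 0.284 and ANKRD37 at 0.562 ± 0.110, and CA9 and ANKRD37 did not differ beyond theirs. A set of 17 enzyme genes took 2.18% to 2.47% of all counts on genes, GAPDH alone 0.827% to 0.942%, and SPHINX31 had the lowest shares of both. The set was upper and lower glycolysis without PFKFB3 and PFKFB4 and with LDHA and LDHB.

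**Figure D4:**
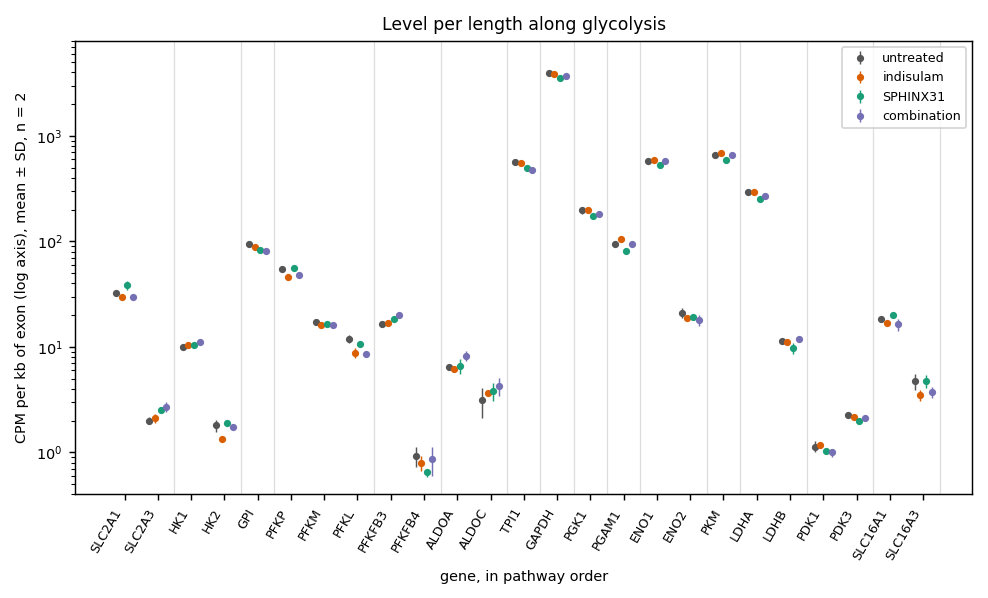
Level per length of the glycolytic, pyruvate and transporter members in pathway order, in CPM per kb of exon on a log axis (points, mean of 2 libraries ± SD, a color per group). GAPDH (3918 CPM per kb in untreated cells), PKM, ENO1, TPI1 and LDHA hold the highest levels, and the spacing between genes is far larger than that between groups.

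Among the isoenzymes on the list of 41, the leading one of each step was the same in all 4 groups, also when the longest transcript served as the length. Genes outside the list were not compared per kb. In CPM, not scaled by length, HKDC1 (120) stood above HK1 (68.9) and PDK4 (137) above PDK3 (39.3) in untreated cells. Others outside the list, such as ENO3 (11.3) and PFKFB2 (20.7), stood below ENO1 and PFKFB3. HK1 exceeded HK2 by a ratio of 5.55 per kb in untreated cells and 7.68 with indisulam. The order of phosphofructokinase subunits was PFKP, PFKM, PFKL, with PFKP 3.15 times PFKM in untreated cells. SLC2A1 exceeded SLC2A3 by a ratio of 16.1 in untreated cells and 10.9 in the combination, and SLC16A1 exceeded SLC16A3 by 3.91 and 4.38. ENO1 stood 27.9 times above ENO2, PFKFB3 17.8 times above PFKFB4 and PDK3 1.99 times above PDK1 in untreated cells. CA12 stood 708 times above CA9 there, a ratio that rests on few counts of CA9. The ratios of ALDOA to ALDOC (2.06) and of LDHA to LDHB (25.9) rest on uncertain counts.

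Between the combination and indisulam alone, 5 members were higher and 2 lower, 17.1% against 7.5% of all genes (3.17% higher and 4.32% lower). PFKFB3 (0.26, adjusted p = 0.00526, SE 0.0473), HK2 (0.38, adjusted p = 0.0331, SE 0.0999), SLC2A3 (0.36, adjusted p = 0.0338, SE 0.0943), EPAS1 (0.23, adjusted p = 0.00733, SE 0.0453) and ALDOA (0.42, adjusted p = 0.0208, SE 0.0978) were higher, and HIF1A (-0.21, adjusted p = 0.0454, SE 0.0580) and TPI1 (-0.19, adjusted p = 0.0276, SE 0.0486) were lower, all by edgeR. For HK2 this put the combination libraries (9.97 and 10.8 CPM) between the untreated replicates and above both indisulam libraries. Each of the 7 calls was lost in at least 1 fit with a library left out: PFKFB3 without combination replicate 2 (0.24), EPAS1 without indisulam replicate 1 or combination replicate 2 (0.21 to 0.22), SLC2A3 without indisulam replicate 2 or combination replicate 1 (0.25 to 0.27) and ALDOA without indisulam replicate 1 or combination replicate 1 (0.30 to 0.37). HK2 was lost without indisulam replicate 1 or 2 or combination replicate 1 or 2 (0.32 to 0.45), TPI1 without indisulam replicate 1 or 2 or combination replicate 1 or 2 (-0.21 to -0.18) and HIF1A without untreated replicate 1 or 2, indisulam replicate 1 or 2 or combination replicate 1 or 2 (-0.28 to -0.14). Added to SPHINX31, indisulam gave 8 members higher and 9 lower, 41.5% against 49.9% of all genes (23.4% higher and 26.5% lower). Among the called members the largest falls were in HIF1A (-0.78), VHL (-0.57) and SLC2A1 (-0.37), and the largest rises in KDM3A (0.50), ALDOA (0.33) and LDHB (0.30), with adjusted p-values of 1.99e-07, 2.2e-06, 0.000417, 6.85e-05, 0.0121 and 0.00771 (edgeR). Members that passed also included BNIP3L, EPAS1, PGAM1, PKM and PFKFB3, which were higher, and SLC16A1, SLC16A3, P4HA1, PFKL, PFKP and EGLN1, which were lower. Calls lost here were PFKL without combination replicate 2 (-0.25), SLC16A1 without combination replicate 1 (-0.15), SLC16A3 without SPHINX31 replicate 1 or combination replicate 2 (-0.24 to -0.19) and EGLN1 without SPHINX31 replicate 1 or 2 or combination replicate 1 or 2 (-0.34 to -0.21). Among the rises they were LDHB without SPHINX31 replicate 2 or combination replicate 1 (0.18 to 0.24), ALDOA without SPHINX31 replicate 2 or combination replicate 1 (0.19 to 0.22) and PFKFB3 without untreated replicate 1 or 2, SPHINX31 replicate 1 or combination replicate 2 (0.12 to 0.14).

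The interaction, which measures how far the combination departs from the sum of the single treatments on the log2 scale, was not called for any member (0 of 41) or any other gene (0.0% by edgeR). At an unadjusted p under 0.05 there were 6 members and 1584 genes in all. DESeq2 called 31 genes and no member. The member with the lowest p was HIF1A, with -0.27 (SE 0.0818, unadjusted p = 0.00557, adjusted p = 0.427, edgeR), and the other 5 were SLC2A1 (-0.25), HK2 (0.30), LDHB (0.31), ALDOA (0.38) and PFKFB4 (0.65). The SE of the interaction ran from 0.0591 to 0.834 (median 0.10), and departures of the size seen here did not pass the adjustment over all tested genes. A missing call does not show that the effects add up.

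The wider pathway was taken from a list of 42 other genes of glycolysis and pyruvate use and a list of 40 other HIF pathway genes. Of the former, 29 were tested. With indisulam 5 were higher and 12 lower (58.6% against 43.7% of all genes), with SPHINX31 2 and 0 (6.90% against 8.61%), and with the combination 6 and 16 (75.9% against 50%). Median absolute log2 fold changes were 0.31, 0.11 and 0.37, against 0.26, 0.14 and 0.30 for all genes. TXNIP, an arrestin-like protein that limits glucose uptake, was at 12.8 and 15.2 CPM in the untreated libraries, 4.52 and 5.44 with indisulam, 21.5 and 15.1 with SPHINX31 and 2.52 and 3.83 with the combination. All libraries with indisulam lay below the others, with log2 fold changes of -1.497 (adjusted p = 2.13e-05, SE 0.182) and -2.14 (adjusted p = 9.88e-07, SE 0.192) alone and combined (edgeR). LDHD, a mitochondrial D-lactate dehydrogenase, fell by 0.68 on the log2 scale with indisulam (adjusted p = 0.00135, edgeR). SLC2A4 and PFKFB1, also among the largest falls, had only 9 to 24 and 4 to 20 counts per library. The call of SLC2A4 with indisulam was lost without untreated replicate 1 or 2 or indisulam replicate 1 or 2 (-1.15 to -1.07, adjusted p from 0.0534 to 0.0827) and that of PFKFB1 with the combination without untreated replicate 2 or combination replicate 1 or 2 (-1.52 to -1.01, adjusted p from 0.11 to 0.248), by edgeR. DESeq2 made neither call (adjusted p = 0.187 and 0.12).

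Genes that take pyruvate into mitochondria and oxidize it made up many of these calls, a grouping chosen after the values were seen. Of the 5 subunit genes of the pyruvate dehydrogenase complex, 3 were lower and 1 higher with indisulam, and 4 lower and 1 higher with the combination. Over all genes 23.5% were lower and 20.1% higher with indisulam, and 26.3% and 23.8% with the combination. DLAT, the acetyltransferase subunit, was at 86.5 and 81.8 CPM in the untreated libraries, 52.9 and 54.2 with indisulam, 74.0 and 81.9 with SPHINX31 and 44.4 and 47.2 with the combination. The 4 libraries with indisulam lay below the other 4. The difference on the log2 scale was -0.65 (adjusted p = 2.41e-06, SE 0.0616) with indisulam and -0.88 (adjusted p = 1.07e-07, SE 0.0620) with the combination (edgeR). The subunits of the decarboxylase were also lower, PDHA1 at -0.26 and -0.42 and PDHB at -0.34 and -0.54, while DLD, the dehydrogenase shared with other complexes, was higher at 0.27 and 0.21. Both genes of the mitochondrial pyruvate carrier were lower, MPC1 at -0.53 and -0.60 and MPC2 at -0.17 and -0.39. The phosphatases that reactivate the complex parted, with PDP1 at -0.54 and -0.23 and PDP2 at 0.30 and 0.58. None of these genes passed with SPHINX31. Calls were lost with indisulam for MPC2 without untreated replicate 1 or 2, indisulam replicate 1 or combination replicate 1 or 2 (-0.22 to -0.09), and with the combination for DLD without untreated replicate 1 or combination replicate 2 (0.14 to 0.19) for PDP1 without untreated replicate 2 or combination replicate 1 (-0.20 to -0.15) and for PDHX, the fourth subunit gene counted as lower there (-0.16), without untreated replicate 1 or 2 or combination replicate 1 or 2 (-0.17 to -0.14). DESeq2 called neither MPC2 with indisulam nor PDHX with the combination (adjusted p = 0.0922 and 0.0843).

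**Figure D5:**
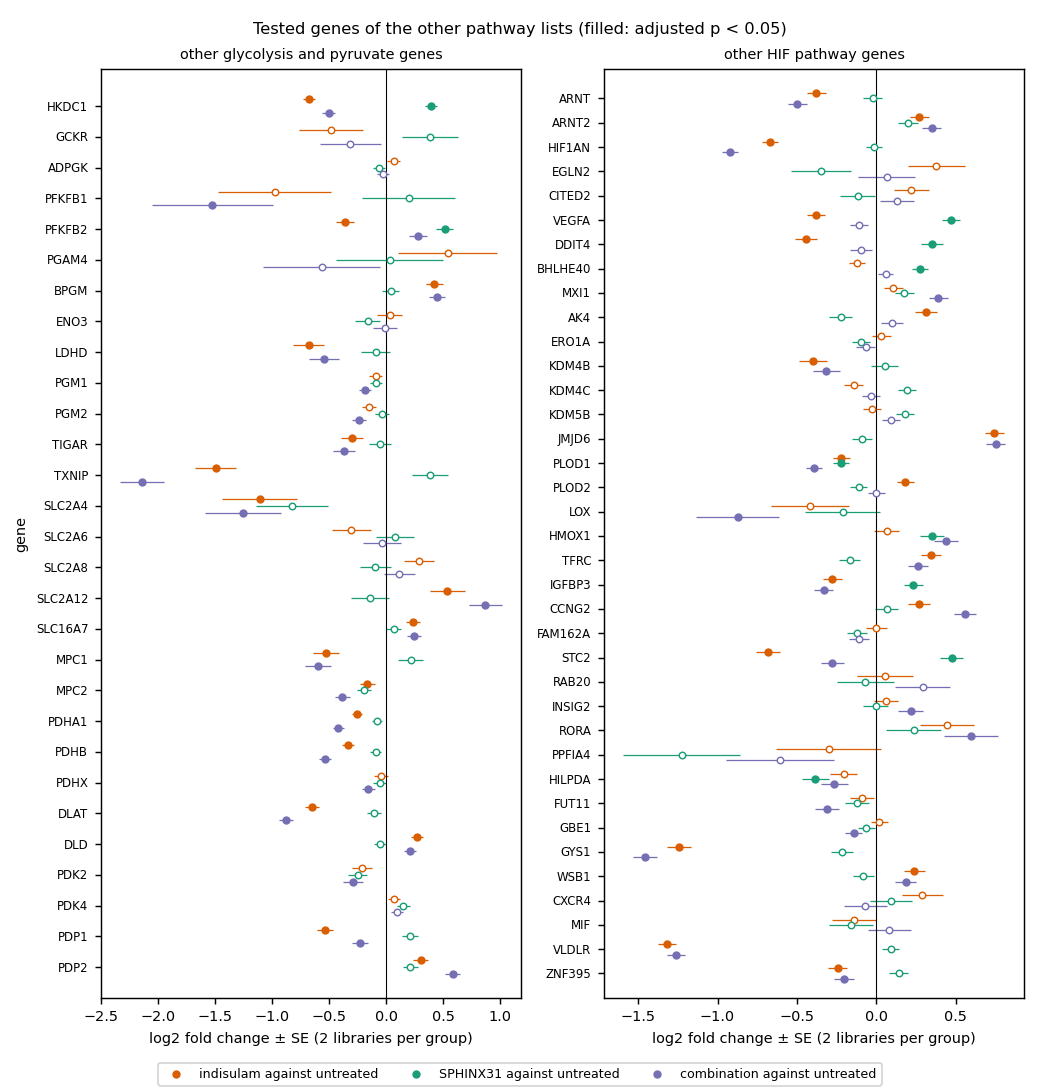
Log2 fold change (points) ± SE against untreated cells of the 29 tested genes of the list of other glycolysis and pyruvate genes (left) and the 37 tested genes of the list of other HIF pathway genes (right), with 2 libraries per group, filled where the adjusted p was under 0.05. TXNIP, GYS1, VLDLR, DLAT and HIF1AN lie left of 0 with indisulam and the combination, and VEGFA and STC2 lie right of 0 with SPHINX31 (both 0.47).

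Of the 40 other HIF pathway genes, 37 were tested. With indisulam 7 were higher and 11 lower (48.6%), with SPHINX31 6 and 2 (21.6%), and with the combination 9 and 13 (59.5%), against the same shares of all genes as above. HIF1AN, the asparaginyl hydroxylase that blocks the transactivation domain of HIF alpha, was at 85.8 and 83.0 CPM in the untreated libraries, 53.1 and 52.9 with indisulam, 84.6 and 82.4 with SPHINX31 and 44.5 and 44.7 with the combination. The libraries with indisulam did not overlap the others, with log2 fold changes of -0.67 (adjusted p = 3.01e-07, SE 0.0503) alone and -0.92 (adjusted p = 1.25e-08, SE 0.0507) in the combination (edgeR). ARNT, the partner of the HIF alpha subunits, had -0.38 and -0.50, and its paralog ARNT2 had 0.27 and 0.35, with the call of ARNT2 with indisulam lost without untreated replicate 1 (0.22, adjusted p = 0.055) in edgeR. VLDLR, a lipoprotein receptor, and GYS1, the glycogen synthase of muscle, had the largest falls, at -1.32 and -1.24 with indisulam and -1.26 and -1.45 with the combination, with adjusted p-values of 4.15e-09, 4.39e-08, 2.27e-09 and 6.72e-09 (edgeR). JMJD6, a hydroxylase of splicing factors among other proteins, rose from 21.4 ± 0.0308 to 35.9 ± 0.246 CPM with indisulam (SD, n = 2 per group), on the log2 scale 0.74 (adjusted p = 7.74e-07, SE 0.0616) by edgeR.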

How the data were processed

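Poly(A)+ RNA of A549 cells was sequenced from stranded, paired-end libraries. The deposited files hold raw read counts per Ensembl gene, not normalized, with rows for reads not assigned to a gene (no feature, ambiguous, not unique). Per the labels, the submitters' processing notes name HISAT2 2.2.1, HTSeq and GRCh38. The annotation release and the strand setting of the counting are not given in the sources used here. Rows that name no gene were left out of library sizes and tests: 83.0% to 86.0% of reads per library lay on genes.

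Samples were grouped by their labels, 2 technical replicates each. Counts were filtered with filterByExpr, scaled by TMM (factors 0.978 to 1.02) and fitted with edgeR 4.0.16 in R 4.3.3 (glmQLFit and glmQLFTest, group means over all 8 libraries, 4 residual degrees of freedom). p-values were adjusted by Benjamini-Hochberg over 18661 genes. SE was the log2 fold change divided by the square root of the test's F. CPM per kb used the merged exons of GENCODE release 44. The script was tested on simulated counts first. Alternatives were RLE factors, total counts, DESeq2 1.42.0, other count filters, fits on the compared groups, a replicate block, GC offsets and leaving out each library. No column was left unmapped.

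The members and lists were chosen with earlier results of these data known. Values in every library are given for members that passed and were among the 4 largest changes of either sign in a comparison with untreated cells, and for members picked for their role (SLC2A1, HK2, PFKFB3, GAPDH, PKM, LDHA, PDK1, HIF1A, EPAS1, VHL, CA9). From the other lists, the 3 largest changes that passed with indisulam and with the combination were named. An item of the other HIF pathway list is not reported here.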

Additional observations from a re-analysis of the deposited data

Results flagged for a closer look

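Reads that fell outside annotated features enter no comparison above. Their share was higher in every library with indisulam than in both untreated libraries: 5.48% and 4.49% with indisulam and 5.88% and 4.87% with the combination, against 3.94% and 4.34% in untreated cells and 3.67% and 3.93% with SPHINX31. The 95% Wilson intervals of these shares reach at most 0.0056 percentage points to either side and cover counting error only, and the replicates of a group differed by more. The lower indisulam library and the higher untreated library lay closer together than the replicates of either group. Where these reads lie relative to the 41 genes cannot be read from counts per gene.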

How the results depend on the processing

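Over 128 values for single genes, alternatives gave the same direction and side of the threshold 2205 times, a lost call 182 times, a gained call 22 times and another sign 17 times. Of the 108 called values, 58 kept their call in every alternative and 0 changed sign. Among members against untreated cells these were VHL, HIF1A, PFKL and KDM3A with indisulam and HIF1A, VHL, KDM3A, SLC2A3, EPAS1, PFKFB3, PFKL, TPI1 and P4HA1 with the combination. With a library left out, a group of 1 is assumed to vary like the others. For members against untreated cells, DESeq2 ended the calls of SLC16A3 with indisulam and of ANGPTL4, NDRG1, LDHA, HK1, SLC16A1 and SLC16A3 with the combination, and total counts those of GPI with SPHINX31 and of LDHA, PFKP, ENO2, SLC16A1 and SLC16A3 with the combination. The causes of these changes were not tested. Differences under about 0.1 on the log2 scale were near the SE and could not be resolved with 2 libraries a group.

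Values that changed sign were all uncalled. With a library left out these were GAPDH (-0.052 to 0.021), LDHA (-0.0043 to 0.056) and PDK1 (-0.075 to 0.17) with indisulam, HK2 (-0.047 to 0.22), PDK1 (-0.24 to 0.0013), HIF1A (-0.0038 to 0.12) and CA9 (-1.85 to 0.15) with SPHINX31, and HK2 (-0.17 to 0.11) and PKM (-0.059 to 0.019) with the combination. GAPDH with indisulam had 0.0070 under GC correction, with or without the replicate block, and by total counts HK2 had 0.016 and PKM 0.033 with the combination.

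Member counts moved by over 1.5 times as follows. With indisulam, 10 members were lower under GC correction with the replicate block. With SPHINX31, 4 were higher by total counts and under GC correction with or without the block, and the number lower was 8 by DESeq2, 10 with every gene of at least 1 count, 9 under GC correction, 10 with the block added and 9 at an adjusted p under 0.1. With the combination, 8 were lower by total counts. Between the combination and indisulam, the number lower was 0 by total counts, 4 by DESeq2, 6 with every gene of at least 1 count and 4 at an adjusted p under 0.1. With each library left out, members higher and lower ranged from 1 to 7 and 4 to 10 with indisulam, 0 to 2 and 0 to 6 with SPHINX31, 5 to 9 and 5 to 15 with the combination, and 2 to 5 and 0 to 2 between the combination and indisulam.

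Total counts raised the share of higher calls among all genes from 57.3% to 72.3% with SPHINX31 and from 42.3% to 65.4% between the combination and indisulam. All genes called numbered 1606 with SPHINX31, 2619 under GC correction, 2642 at an adjusted p under 0.1 and 482 to 1810 with a library left out, and between the combination and indisulam 1399, 2282, 2226 and 440 to 1612. The interaction gave 0, 31 by DESeq2, 94 with every gene of at least 1 count, 16 under GC correction and 0 to 1 with a library left out.

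Same-numbered libraries did not deviate together throughout (correlations of -0.57 to 0.45 over 9946 genes). The correlation was 0.45 between untreated and SPHINX31 libraries, and -0.57 and -0.49 between each of these and indisulam. With the combination it ran from 0.016 to 0.17. Whether libraries of different groups share a source of variation was not tested, and the main fit has no term for it. With the replicate block, members higher and lower were 5 and 8 with indisulam, 2 and 6 with SPHINX31 and 8 and 12 with the combination, and all genes called were 7851, 1330 and 9077. The block ended the calls of GPI with SPHINX31 (adjusted p = 0.0512), of HK1 (0.0562) and LDHA (0.0561) with the combination and of HK2 between the combination and indisulam (0.052), and outside the members that of MPC2 with indisulam (0.0656), all by edgeR. With the indisulam numbers exchanged in the block, added after the correlations were seen, 10 members were lower with indisulam, 11 with SPHINX31 and 6 between the combination and indisulam, with 2630 and 2252 genes called in the last 2 comparisons and 12 in the interaction.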

Other observations

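Some HIF targets outside the 41 genes were called with SPHINX31 in the direction opposite to that with indisulam, a group picked after its values were seen. VEGFA, the angiogenic growth factor, was at 149 and 147 CPM in the untreated libraries, 116 and 111 with indisulam, 217 and 192 with SPHINX31 and 136 and 138 with the combination. Its log2 fold change was -0.38 with indisulam and 0.47 with SPHINX31, and -0.11 with the combination, where it did not pass (adjusted p = 0.132, edgeR). DDIT4, an inhibitor of mTORC1, had -0.44, 0.35 and -0.10, and STC2, a secreted glycoprotein of stressed cells, had -0.68, 0.47 and -0.28. HKDC1, a hexokinase-like enzyme from the list of other glycolytic genes, had the same pattern with -0.67, 0.39 and -0.51. The call of DDIT4 with SPHINX31 was lost without untreated replicate 2 or SPHINX31 replicate 1 (0.26 to 0.29, adjusted p from 0.0727 to 0.0881) and that of STC2 with the combination without combination replicate 1 (-0.13, adjusted p = 0.0967), by edgeR. All these values share the untreated libraries.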
